A study of Rattus norvegicus with 16 samples.

Results

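The heterotrimeric G protein subunits and the regulators of G protein signalling (RGS proteins) were followed through traumatic brain injury (TBI) in the rat hippocampus. All probes of the array whose gene name was that of an alpha subunit (Gna), a beta subunit (Gnb), a gamma subunit (Gng) or an RGS protein (Rgs) were taken, which gave 49 genes on 60 of 30367 probes, out of 26583 gene names. Where a gene had several probes, the probe with the highest mean intensity over all arrays stood for it. Of the 49 genes, 47 were tested, their probe being well above background in all rats of 1 group or more, and Gna13 and Rgs11 did not pass this filter. The members were picked by name and not by their values.

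Gene expression had been measured on 16 single-colour arrays of whole hippocampus from adult male Sprague-Dawley rats. There were 3 Naïve rats, neither anaesthetised nor handled, 2 Sham rats, anaesthetised and prepared for injury but not injured, and 3 TBI rats that received a severe fluid percussion injury. A further 3 injured rats received PMI-006 (TBI+PMI, 250 mg/kg), 3 received JM6 (TBI+JM6, 400 mg/kg) and 2 received estradiol (TBI+E33, 33 ug/kg). PMI-006 and JM6 were given by gavage and estradiol by injection, which the labels give as subcutaneous and the methods as intraperitoneal. Tissue of the operated groups was taken at 24 h. The design comprised 3 rats in each group, and for Sham and TBI+E33 2 arrays apiece were analysed here. No genetic modification was involved, no group was given a drug without injury, and no vehicle-treated group was analysed here. The tissue contains all cell types of the hippocampus, so fewer cells of a type and less RNA per cell cannot be told apart.

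A heterotrimeric G protein carries the signal of a seven-transmembrane receptor to the inside of the cell. The alpha subunit binds GTP when the receptor is activated and parts from the beta-gamma dimer, and both then act on effectors. Alpha subunits of the Gs class stimulate adenylyl cyclase, those of the Gi, Go and Gz class inhibit it, those of the Gq class activate phospholipase C beta and those of the G12 class activate RhoGEFs. RGS proteins speed the hydrolysis of GTP on the alpha subunit and thereby end the signal. In the hippocampus these proteins lie behind the slow actions of glutamate, GABA, acetylcholine, serotonin, dopamine and opioids.

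The probes of 5 members on which the results turn are printed here as the scanner files give them, with their rn4 positions. They are the 3 subunits that were called both in TBI vs. Sham and in Sham vs. Naïve rats under 2 scalings (Gna11, Gnaz and Gnb2) and 2 RGS genes with large differences, and each sequence is the whole of what was measured for that gene. Gna11 was read at chr7:9659914-9659973 (plus strand), Gnaz at chr20:14148446-14148505 (minus strand), Gnb2 at chr12:19598785-19598844 (minus strand), Rgs13 at chr13:58017531-58017590 (minus strand) and Rgs16 at chr13:68811189-68811248 (plus strand). Whether these stretches lie in coding exons or in untranslated ones was not determined.
Gna11: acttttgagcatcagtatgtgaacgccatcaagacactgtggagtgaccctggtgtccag
Gnaz: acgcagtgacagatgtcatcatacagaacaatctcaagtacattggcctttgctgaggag
Gnb2: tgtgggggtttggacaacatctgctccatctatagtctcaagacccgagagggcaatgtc
Rgs13: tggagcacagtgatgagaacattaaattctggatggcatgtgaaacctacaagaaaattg
Rgs16: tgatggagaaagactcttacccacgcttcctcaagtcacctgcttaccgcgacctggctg

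The values below are log2 of the intensity relative to a 75th percentile, taken on each array over the probes well above background, so 0 is the level of that percentile, and the level of a probe is never set against that of another probe. The arrays lay on 4 slides. The first slide held Naïve 1 and 2 with both Sham arrays, and the second held Naïve 3 with the 3 TBI arrays. The remaining slides, scanned in a second session, held all drug arrays. The arrays of the first session had 16274 to 18239 probes well above background and those of the second had 20256 to 24979. Neurons were well represented on every array, since 5 of 6 listed neuronal markers were on the array and these 5 were well above background throughout, and Gna11 itself was well above background on all 16 arrays. Gnaz was so on 15 arrays and fell short on TBI 3.

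**Figure D1:**
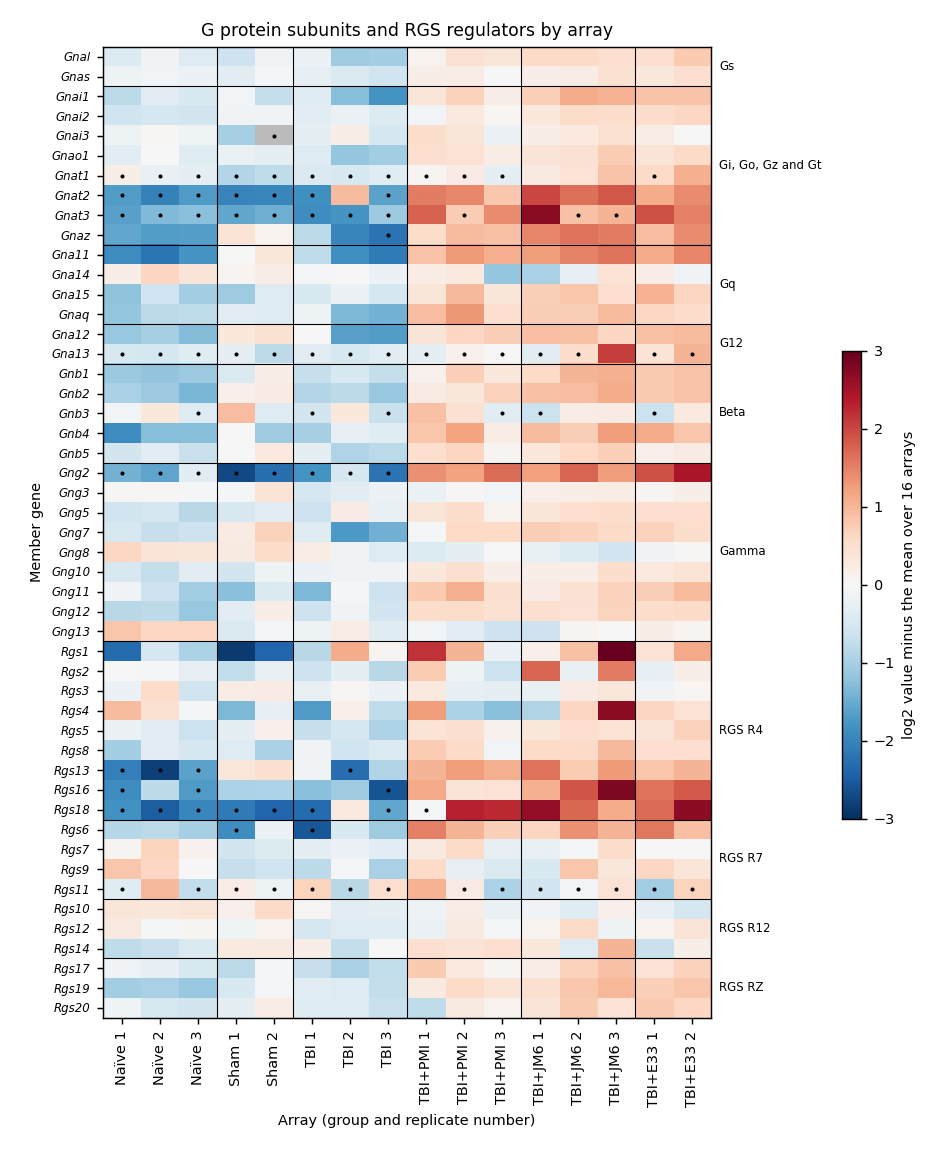
Levels of the 49 members (rows, ordered by role) on the 16 arrays (columns, by group), as log2 value minus the mean of that member over all arrays, from -3 (blue) to 3 (red). A black dot marks a value not well above background, and the step between the TBI and the TBI+PMI columns coincides with the change of scanning session.

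The first question was how surgery and injury moved these genes. In Sham vs. Naïve rats 8 of 47 members were higher and 1 was lower (limma, adjusted p under 0.05), where 6.55% of all tested probes were higher and 1.51% lower. In TBI vs. Sham rats no member was higher and 5 were lower, Gnaz, Gna11, Gng7, Gna12 and Gnb2, against 2.92% of all probes higher and 6.46% lower. In TBI vs. Naïve rats limma called no member, with 2.98% of all probes higher and 1.73% lower. At an unadjusted p under 0.05 limma gave 17 of 47 members in TBI vs. Naïve (20.9% of all probes), and the methods' t-test with a fold change over 1.2 gave 15 (13.9%). The median difference of the members was 0.14 in Sham vs. Naïve (0.06 over all probes), -0.35 in TBI vs. Sham (-0.03) and -0.14 in TBI vs. Naïve (0.04). After quantile normalization, which gives all arrays 1 distribution, limma called 6 members higher and 3 lower in Sham vs. Naïve (3.29% and 2.47% of all probes), where 1 of the 3 was Gnai3, measured in 1 Sham rat alone. It called 0 higher and 5 lower in TBI vs. Sham (3.73% and 4.25%) and 0 higher and 1 lower in TBI vs. Naïve rats (2.99% and 2.56%). With the percentile taken over all probes instead, the counts were 8 higher and 4 lower in Sham vs. Naïve (6.12% and 3.89%), 2 higher and 7 lower in TBI vs. Sham (5.9% and 6.5%) and 1 higher and 3 lower in TBI vs. Naïve rats (4.44% and 3.66%). Normexp background correction and the adjusted t-test of the methods gave 0 members in both TBI vs. Sham and Sham vs. Naïve rats, and a limma fit of the compared groups alone gave 0 and 3. The share of all probes called in these settings is not given, so no result about the members against the whole array is drawn from them. The first and second comparisons share the Sham arrays, so a member that is high in Sham rats enters both.

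**Figure D2:**
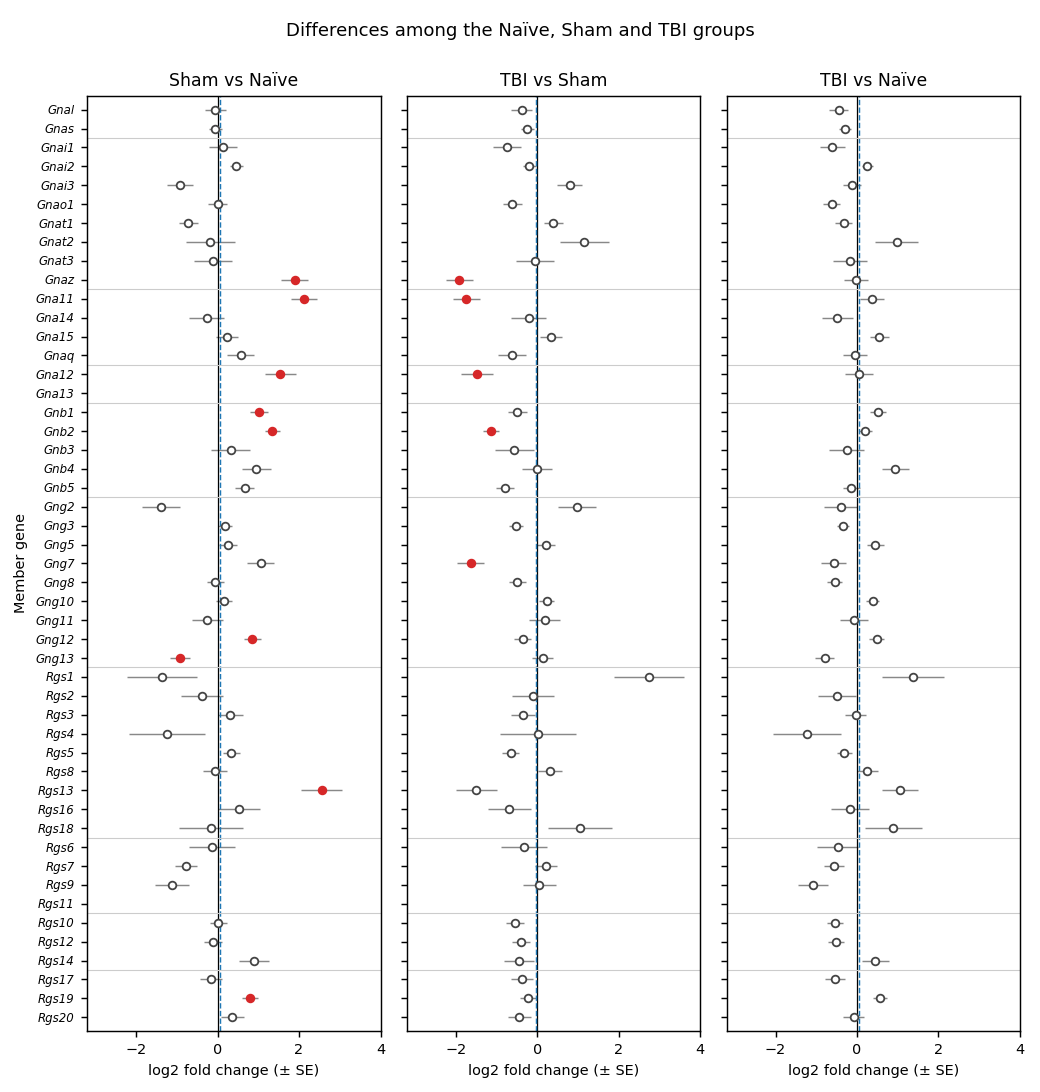
Log2 fold change with its standard error (bars) for each tested member in Sham vs. Naïve, TBI vs. Sham and TBI vs. Naïve, with adjusted p under 0.05 filled in red and the median of all probes as a dashed line. Gna11, Gnaz, Gna12 and Gnb2 are red on the right in the first panel and red on the left in the second.

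Among the alpha subunits, Gna11, Gnaz and Gna12 were high in the Sham rats. Gna11, a Gq class subunit that couples receptors to phospholipase C beta, had values of -4.86, -5.16 and -4.76 in Naïve, -2.96 and -2.65 in Sham and -3.74, -4.83 and -5.08 in TBI rats. Both Sham values lay above every Naïve and every TBI value, whereas the Naïve and TBI values overlapped. Gna11 was 4.35-fold higher in Sham than in Naïve rats (log2 fold change 2.12, SE 0.32, limma adjusted p = 0.00436). It was 3.35-fold lower in TBI than in Sham rats (-1.74, SE 0.32, limma adjusted p = 0.0108). With Sham 1 left out the latter difference was -1.90, and with Sham 2 left out -1.59. With 1 Sham rat the spread of that group is not known, and no call is drawn from these fits. TBI and Naïve rats differed by 0.38 with a 95% interval from -0.25 to 1.01 (limma adjusted p = 0.51).

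Gnaz, the pertussis toxin-insensitive member of the Gi class that is found mainly in neurons, had values of -5.22, -5.35 and -5.33 in Naïve, -3.26 and -3.55 in Sham and -4.46, -5.65 and -5.88 in TBI rats. As with Gna11, both Sham values were on top and TBI 1 was the highest of the injured rats. Gnaz was 3.71-fold higher in Sham than in Naïve rats (1.89, SE 0.33, limma adjusted p = 0.00702) and 3.79-fold lower in TBI than in Sham rats (-1.92, SE 0.33, limma adjusted p = 0.00829). The latter difference was -1.78 without Sham 1 and -2.07 without Sham 2, and no call is drawn from 1 Sham rat. The TBI vs. Naïve difference was -0.03, with an interval from -0.67 to 0.61.

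Gna12, which signals to the small GTPase RhoA, had values of -2.84, -2.70 and -3.01 in Naïve, -1.38 and -1.24 in Sham and -1.68, -3.33 and -3.38 in TBI rats. TBI 1 lay below the Sham arrays and above all Naïve rats, and the other two injured rats lay below all Naïve rats. Gna12 was 2.90-fold higher in Sham than in Naïve (1.54, SE 0.39, limma adjusted p = 0.0304) and 2.80-fold lower in TBI than in Sham rats (-1.48, SE 0.39, limma adjusted p = 0.0336). After quantile normalization neither call held, with adjusted p values of 0.066 and 0.0533 from limma. Both were also lost with the replicate number as a block (limma adjusted p = 0.0606 and 0.0627). Leaving out TBI 2 or TBI 3 ended the TBI vs. Sham call (limma adjusted p = 0.111 and 0.116). Leaving out Naïve 1 or Naïve 3 ended the Sham vs. Naïve call (limma adjusted p = 0.0675 and 0.0879). Without Sham 1 and without Sham 2 the TBI vs. Sham difference was -1.55 and -1.41, and the Sham vs. Naïve difference 1.61 and 1.47. No call is drawn from 1 Sham rat.

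By their brightest probe, the remaining tested alpha subunits were not called among the Naïve, Sham and TBI rats. Gnas, the subunit that stimulates adenylyl cyclase, was at 4.65, 4.73 and 4.63 in Naïve, 4.47 and 4.76 in Sham and 4.55, 4.37 and 4.20 in TBI rats. Gnao1, the abundant Go subunit of neurons, was at 0.51, 0.84 and 0.50 in Naïve, 0.65 and 0.59 in Sham and 0.47, -0.30 and -0.18 in TBI rats. The 3 TBI values of Gnao1 were the lowest of these 8, and its difference of -0.62 from both Sham and Naïve rats gave adjusted p values of 0.108 and 0.107 (limma). Gnaq, the nearest relative of Gna11, was at -2.89, -4.08 and -4.16 in TBI rats against -3.05 and -3.12 in Sham rats, so the groups overlapped. Gnai3, an inhibitory subunit, had no usable spot on Sham 2, and its fits rest on Sham 1 alone (-1.37, against -0.52, -0.32 and -0.50 in Naïve rats). With 1 Sham value for this gene, its spread in that group is not known, and no call is drawn from it. Gnat1, the transducin of rod photoreceptors, was not well above background on any Naïve, Sham or TBI array, and its differences (-0.72 in Sham vs. Naïve, 0.40 in TBI vs. Sham and -0.33 in TBI vs. Naïve) give no direction at that level.

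**Figure D3:**
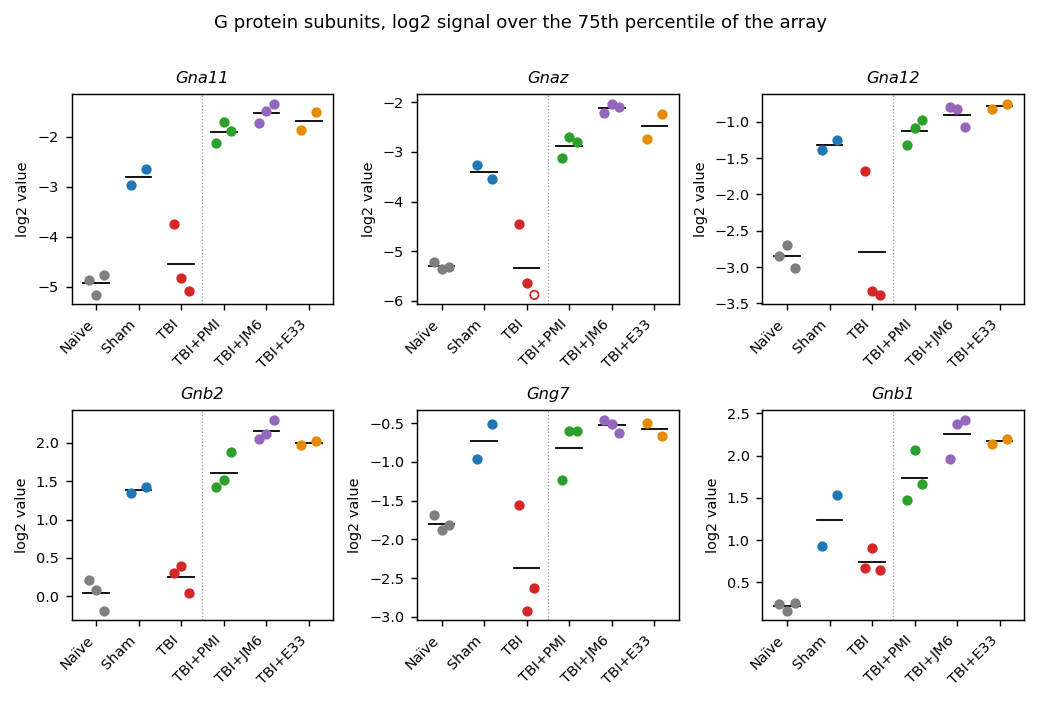
Log2 value of Gna11, Gnaz, Gna12, Gnb2, Gng7 and Gnb1 on each array by group (points), with the group mean as a black bar, open points where the probe was not well above background, and a dotted line between the scanning sessions. In each panel both Sham points stand above all Naïve and TBI points, by the least in Gnb1 (0.93 on Sham 1 against 0.91 on TBI 2).

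Among the beta subunits, Gnb2 moved with the least spread. It was at 0.21, 0.09 and -0.19 in Naïve, 1.35 and 1.42 in Sham and 0.30, 0.40 and 0.04 in TBI rats. The Sham values were separate from both other groups. Gnb2 was 2.54-fold higher in Sham than in Naïve rats (1.35, SE 0.19, limma adjusted p = 0.00353) and 2.20-fold lower in TBI than in Sham rats (-1.14, SE 0.19, limma adjusted p = 0.00736). It passed in TBI vs. Sham whichever TBI array was left out, with adjusted p values from 0.00366 to 0.0311 (limma). That difference was -1.17 without Sham 1 and -1.10 without Sham 2. TBI and Naïve rats differed by 0.21 with an interval from -0.16 to 0.57.

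Gnb1, the other widely expressed beta subunit, was at 0.24, 0.16 and 0.26 in Naïve, 0.93 and 1.54 in Sham and 0.67, 0.91 and 0.65 in TBI rats. It was 2.02-fold higher in Sham than in Naïve rats (1.01, SE 0.23, limma adjusted p = 0.0197), and the TBI vs. Sham difference of -0.49 did not pass (adjusted p = 0.195). The Sham vs. Naïve call was lost without Naïve 3 (limma adjusted p = 0.0504), and that difference was 1.32 without Sham 1 and 0.71 without Sham 2. Gnb5, the unusual beta subunit that pairs with RGS proteins of the R7 family, was at -0.35 and -0.04 in Sham and -0.60, -1.23 and -1.15 in TBI rats. The groups did not overlap, and the difference of -0.79 (SE 0.23) missed the threshold (limma adjusted p = 0.0501), which it passed after quantile normalization (-0.68, adjusted p = 0.044).

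Of the 9 gamma subunits, which anchor the dimer in the membrane, 3 were called in a comparison among the Naïve, Sham and TBI rats. Gng7 was at -1.69, -1.88 and -1.81 in Naïve, -0.96 and -0.50 in Sham and -1.55, -2.92 and -2.63 in TBI rats. It was 3.11-fold lower in TBI than in Sham rats (-1.64, SE 0.33, limma adjusted p = 0.0141), and its Sham vs. Naïve difference of 1.06 did not pass (adjusted p = 0.0713). The TBI vs. Sham call was lost without TBI 3 (limma adjusted p = 0.0572), and that difference was -1.86 without Sham 1 and -1.41 without Sham 2. Gng12, which is prominent in glia, was 1.80-fold higher in Sham (-0.93 and -0.41) than in Naïve rats (-1.44, -1.39 and -1.75) (0.85, SE 0.21, limma adjusted p = 0.0266). Its call was lost without Naïve 1 or Naïve 3 (limma adjusted p = 0.051 and 0.0892), and the difference was 1.11 without Sham 1 and 0.59 without Sham 2.

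Gng13 was the one member called lower in Sham than in Naïve rats. It was at 3.40, 3.20 and 3.20 in Naïve, 2.14 and 2.54 in Sham and 2.41, 2.80 and 2.22 in TBI rats, so the Naïve rats lay above all others. The Sham vs. Naïve difference was 1.90-fold (-0.93, SE 0.25, limma adjusted p = 0.0415), and a second probe gave -0.90 (adjusted p = 0.106). The call was lost with the replicate number as a block (limma adjusted p = 0.0538) and without any 1 of the Naïve arrays (0.0699 to 0.106). The Sham vs. Naïve difference was -0.73 without Sham 1 and -1.12 without Sham 2, and no call is drawn from 1 Sham rat. TBI vs. Naïve gave -0.79 (SE 0.23, limma adjusted p = 0.0654), which passed after quantile normalization (-0.82, adjusted p = 0.0222).

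Among the RGS genes, Rgs13 and Rgs19 were called in Sham vs. Naïve rats and none in TBI vs. Sham rats. Rgs13, an R4 family member best known from mast cells and B cells, was not well above background on any Naïve array (-6.22, -6.97 and -5.77). Both Sham arrays showed it (-3.84 and -3.69), as did TBI 1 (-4.27) and TBI 3 (-5.07), while TBI 2 (-6.45) did not. It was at least 4.72-fold higher in Sham than in Naïve rats (limma adjusted p = 0.0114), measured against the dimmest probes that were well above background, and quantile normalization ended that call (adjusted p = 0.0601). Rgs19, which acts on Gi class subunits, was at -1.99, -1.94 and -2.09 in Naïve, -1.41 and -1.02 in Sham and -1.31, -1.35 and -1.67 in TBI rats. Its 1.73-fold difference between Sham and Naïve rats passed (0.79, SE 0.20, limma adjusted p = 0.0304). That call was lost whichever Naïve array was left out (limma adjusted p = 0.0505 to 0.089), and the difference was 0.99 without Sham 1 and 0.60 without Sham 2.

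Rgs1, an R4 family gene of leukocytes and activated microglia, had the largest difference of the members between injured and surgical control rats. It was at -4.87, -3.07 and -3.52 in Naïve, -5.42 and -4.94 in Sham and -3.39, -1.46 and -2.48 in TBI rats. All TBI values were above both Sham values, but the difference of 2.74 had an SE of 0.86 and did not pass (limma adjusted p = 0.0636). The order of the TBI arrays was that of the summed level of 6 leukocyte markers (Ptprc, S100a8, S100a9, Ccr2, Cd3e and Ly6c). The sum was 0.652, 3.31 and 1.77 in TBI 1, 2 and 3, from 0.122 to 0.15 in Naïve and from 0.308 to 0.463 in Sham rats. The orders also matched in Sham and in TBI+E33 rats, but not in Naïve, TBI+PMI or TBI+JM6 rats. The TBI+PMI array with the highest Rgs1 (-0.40) had the lowest sum of that group (1.64). The microglial markers (5 of 5 above background in all groups) summed to 4.84 to 5.27 in Naïve, 5.24 to 8.24 in Sham and 6.78 to 8.93 in TBI rats. S100a8, Cd3e and Ccr2 were not well above background on any Naïve array, and the part of either cell type in the Rgs1 values was not tested.

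Rgs4 and Rgs2, neuronal R4 genes whose transcripts respond quickly to activity, were not called among the Naïve, Sham and TBI rats. Rgs4 was at 1.92, 1.43 and 0.91 in Naïve, -0.39 and 0.73 in Sham and -0.74, 1.11 and 0.21 in TBI rats. The Naïve mean was the highest, and TBI differed from Naïve rats by -1.23 with an SE of 0.83 (limma adjusted p = 0.442). Rgs2 was at 0.57, 0.51 and 0.31 in Naïve, -0.17 and 0.34 in Sham and -0.06, 0.26 and -0.27 in TBI rats. Rgs9, the R7 family gene of the striatum, was at -2.14, -2.34 and -2.98 in Naïve and -3.75, -3.0 and -3.95 in TBI rats without overlap, and its difference of -1.08 did not pass (SE 0.37, limma adjusted p = 0.114). Rgs7, a neuronal R7 family gene, was at -0.82, -0.23 and -0.76 in Naïve and -1.46 and -1.32 in Sham rats, a difference of -0.78 (SE 0.27, limma adjusted p = 0.101) that passed after quantile normalization (-0.85, adjusted p = 0.0278).

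**Figure D4:**
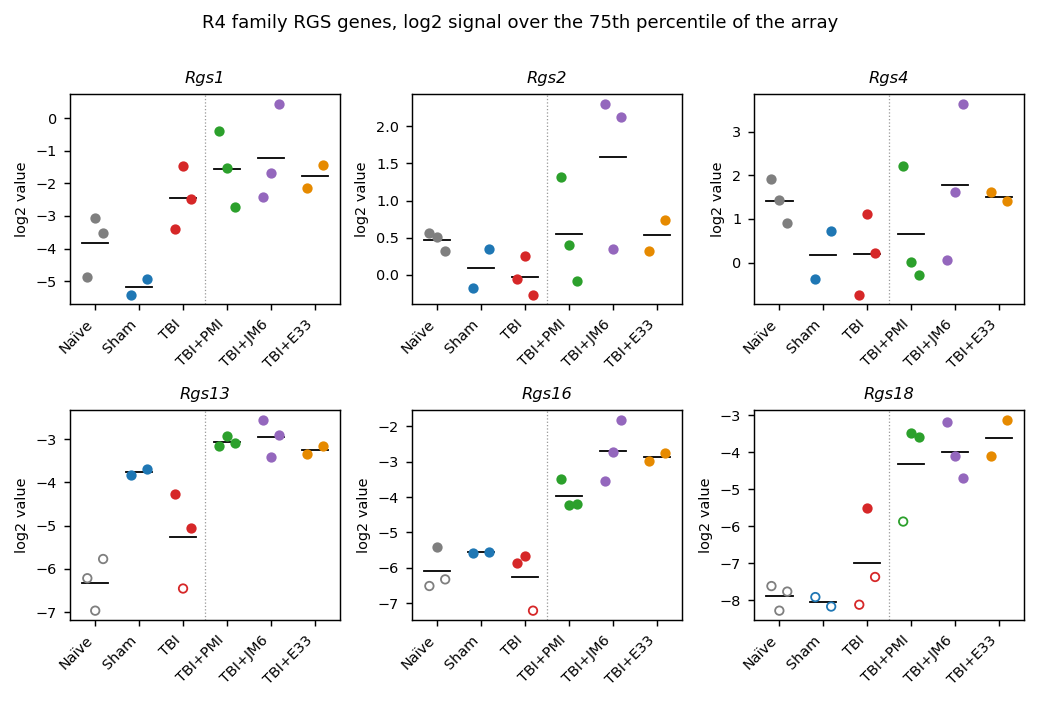
Log2 value of Rgs1, Rgs2, Rgs4, Rgs13, Rgs16 and Rgs18 on each array by group (points), with the group mean as a black bar, open points where the probe was not well above background, and a dotted line between the scanning sessions. Rgs2 and Rgs4 range widely within TBI+PMI and TBI+JM6, and Rgs13 is above background on both Sham arrays and on no Naïve array.

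Some markers of cell types and subregions were high in Sham rats as these members were, and others were not. The summed level of the CA field markers (Wfs1, Fibcd1 and Cpne4, 3 of 3 above background on every array) was 4.12 to 5.19 in Naïve, 6.95 to 6.99 in Sham and 3.5 to 7.24 in TBI rats. The highest value was on TBI 1, the injured rat with the highest Gna11, Gnaz, Gna12 and Gng7. Gnb2 was instead highest on TBI 2 (0.40, against 0.30 on TBI 1). The endothelial markers summed to 1.0 to 2.2 in Naïve, 2.3 to 2.6 in Sham and 1.2 to 1.7 in TBI rats, with TBI 1 the highest of the injured rats there too. The neuronal markers summed to 23.8 to 25.8 in Naïve, 28.2 to 30.8 in Sham and 20.8 to 26.6 in TBI rats, and Slc17a7, the vesicular glutamate transporter, differed by 1.43 in Sham vs. Naïve and by -1.43 in TBI vs. Sham rats. Of the microglial markers P2ry12 differed by 1.05 and by -1.41 in the same comparisons, while Itgam differed by -0.52 and 1.40 and the summed list overlapped between Sham and TBI rats. The dentate granule markers (Prox1, Dsp and C1ql2) summed to 1.52 to 2.13 in Naïve, 2.14 to 2.19 in Sham and 0.395, 0.923 and 0.733 in TBI 1, 2 and 3, so TBI 1 was lowest there. The part of tissue composition in the member values was not tested.

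TBI and Sham arrays lay on different slides, and Naïve rats alone linked them. With the slide as a fixed block no member passed in TBI vs. Sham or in Sham vs. Naïve rats (limma), and the share of all probes is not given for it. The standard errors were larger in that fit, and of the members lower in TBI than in Sham rats Gna11 was at -1.99 (SE 0.69), Gnaz at -1.88 (SE 0.72), Gng7 at -1.61 (SE 0.71), Gna12 at -1.24 (SE 0.87) and Gnb2 at -0.80 (SE 0.34). Within the first slide the Sham vs. Naïve differences were 2.21 for Gna11, 1.88 for Gnaz, 1.23 for Gnb2 and 2.83 for Rgs13 (2 arrays against 2), and within the second slide TBI vs. Naïve gave 0.21 for Gna11 and -0.0020 for Gnaz (3 arrays against 1). The TBI vs. Sham count of 5 became 4 without TBI 2 (3.03% of all probes called), 3 without TBI 3 (1.9%) and 13 without TBI 1 (17.9%). Sham vs. Naïve, with 9 members called, gave 5 without Naïve 1 (4.93%), 7 without Naïve 2 (6.57%) and 4 without Naïve 3 (3.84%). No count is drawn from fits with 1 Sham rat. TBI vs. Naïve gave 6 without TBI 1 (8.97%) and 1 without TBI 2 (1.74%).

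The effectors and partners of these proteins were counted in the same fit, as a list of 47 genes of which 44 were tested. In TBI vs. Sham rats 3 passed as higher and 4 as lower (2.92% and 6.46% of all probes), and the median of the list was -0.25. The lower ones were Adcy1, the calmodulin-stimulated adenylyl cyclase of neurons (-3.13, limma adjusted p = 0.0209), Prkacb, a catalytic subunit of protein kinase A (-1.50, 0.0188), Kcnj9, a G protein-gated potassium channel opened by beta-gamma dimers (-1.49, 0.0136), and Arrb1, an arrestin that uncouples receptors (-1.36, 0.0141). The higher ones were Adcy9, another adenylyl cyclase (2.23, 0.0221), Prkar2a, a regulatory subunit of protein kinase A (1.51, 0.0137), and Pcp2, a modulator of Gi class subunits (1.49, 0.0203). Quantile normalization ended the calls of Adcy1 (adjusted p = 0.0647) and Pcp2 (0.0695), leaving 2 higher and 3 lower. In Sham vs. Naïve rats Adcy1 (2.86), Arrb1 (1.78) and Prkacb (1.51) were higher, and Adcy9 (-3.12) and Adcy8 (-1.25) lower, of which Adcy1 did not pass after quantile normalization (limma adjusted p = 0.0893). In TBI vs. Naïve rats Prkar2a was higher (1.47) and Adcy8 lower (-1.73). None of the 4 phospholipase C beta genes or the 3 RhoGEFs, the effectors of the Gq and G12 classes, was called in these comparisons.

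The second question was what the drugs did in injured rats. All drug arrays were scanned in the second session and all TBI arrays in the first, so drug and session cannot be told apart, and the whole array moved: the median difference over all probes was 0.79 in TBI+PMI, 0.99 in TBI+JM6 and 1.08 in TBI+E33 vs. TBI rats. The members had medians of 0.94, 1.2 and 1.24. With the 75th percentile scaling 30 members were higher and none lower in TBI+PMI rats, where 56.7% of all probes were higher and 0.0482% lower. The counts were 35 higher and none lower in TBI+JM6 rats (69.9% and 0.175% of all probes), and the same numbers in TBI+E33 rats (70.2% and 0.092%). Quantile normalization left 8 higher and 4 lower members in TBI+PMI (9.96% and 9.2% of all probes), 12 and 5 in TBI+JM6 (13.9% and 13.3%) and 10 and 4 in TBI+E33 rats (10.4% and 9.98%). Among the 47 tested members, 5 (Gng2, Gnat1, Gnat2, Gnat3 and Rgs18) passed the filter on low values through the drug groups alone, which favours a higher value there. Of the other 42, 26, 30 and 30 were higher, and 7, 12 and 9 higher with 3, 4 and 3 lower after quantile normalization. With the percentile over all probes the counts were 15 higher and 4 lower (23.8% and 12% of all probes), 18 and 4 (29.1% and 14.6%) and 12 and 6 (28.3% and 12.1%). The 3 comparisons share the TBI arrays.

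**Figure D5:**
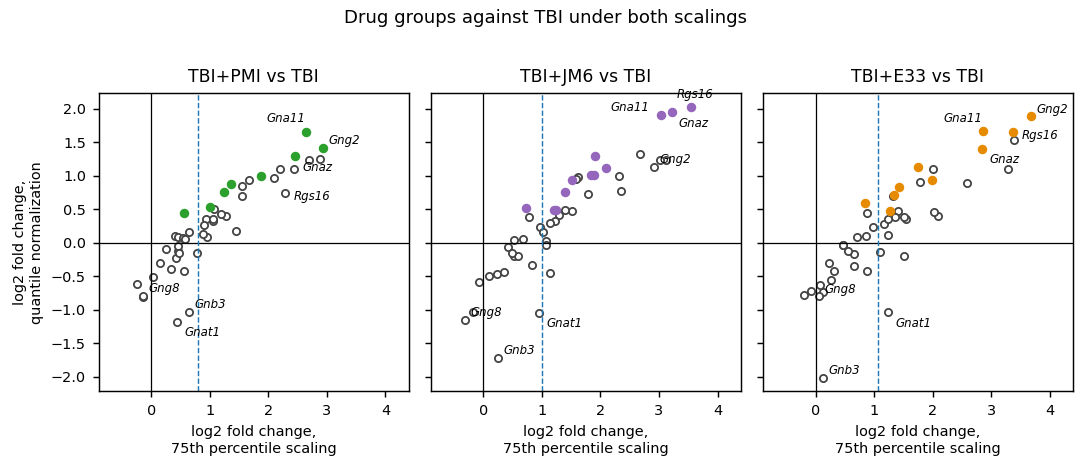
Log2 fold change of each tested member in TBI+PMI, TBI+JM6 and TBI+E33 vs. TBI with the 75th percentile scaling (x axis) against that after quantile normalization (y axis), with members higher with adjusted p under 0.05 in both filled and the medians of all probes dashed. Gna11, Gnaz and Gnb2 are filled in all panels, and Gnat1 lies below 0 on the y axis in each.

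Gna11, Gnaz and Gnb2, low in injured rats relative to Sham rats, were high in all drug groups under both scalings. Gna11 was at -2.11, -1.71 and -1.89 in TBI+PMI, -1.73, -1.48 and -1.34 in TBI+JM6 and -1.85 and -1.50 in TBI+E33 rats, above all TBI and all Sham values. Relative to TBI rats the difference was 2.64 (SE 0.29), 3.03 (SE 0.29) and 2.87 (SE 0.32), which exceeded the median of all probes by 1.85, 2.04 and 1.79. After quantile normalization it was 1.66, 1.91 and 1.66 (limma adjusted p = 0.00248, 0.000796 and 0.00373).

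Gnaz was at -3.11, -2.71 and -2.79 in TBI+PMI, -2.21, -2.03 and -2.11 in TBI+JM6 and -2.74 and -2.24 in TBI+E33 rats, again above all TBI and Sham values. Its difference from TBI rats was 2.46 (SE 0.30), 3.22 (SE 0.30) and 2.84 (SE 0.33), and 1.29, 1.95 and 1.40 after quantile normalization (limma adjusted p = 0.0114, 0.00111 and 0.0121). Gnb2 was at 1.43, 1.52 and 1.88 in TBI+PMI, 2.05, 2.12 and 2.30 in TBI+JM6 and 1.97 and 2.03 in TBI+E33 rats. It differed from TBI rats by 1.36 (SE 0.17), 1.91 (SE 0.17) and 1.75 (SE 0.19), and by 0.87, 1.30 and 1.12 after quantile normalization (limma adjusted p = 0.00783, 0.000775 and 0.00375).

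Gnas, Gnao1 and Gnb1 were also higher in the 3 comparisons under both scalings. Gnao1 was at 1.35, 1.29 and 1.08 in TBI+PMI, 1.23, 1.31 and 1.63 in TBI+JM6 and 1.24 and 1.43 in TBI+E33 rats, clear of the TBI values, and differed by 0.75, 0.76 and 0.71 after quantile normalization (limma adjusted p = 0.0139, 0.00956 and 0.0273). Gnb1 differed by 0.54, 0.94 and 0.84 on that scale (adjusted p = 0.0434, 0.0028 and 0.0107) and Gnas by 0.45, 0.51 and 0.59 (adjusted p = 0.041, 0.0187 and 0.0203). Gnaq passed under both scalings in TBI+PMI rats (-1.82, -1.43 and -2.23, with 1.88, SE 0.30, and 1.0 after quantile normalization, limma adjusted p = 0.0188). Gnai1, an inhibitory subunit, passed both in TBI+JM6 rats (2.09, SE 0.31, and 1.11, limma adjusted p = 0.01) and in TBI+E33 rats (0.94 after quantile normalization, adjusted p = 0.0404).

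Gng2, a gamma subunit of the brain, was not well above background on any array of the first session (-8.29 to -5.92) and was so on every array of the second (-4.38 to -3.14). It passed the filter on low values through the drug groups alone, so it had to be higher there. It was at least 3.5-fold higher in TBI+PMI, 3.48-fold in TBI+JM6 and 5.90-fold in TBI+E33 than in TBI rats. The single Gng2 probe had no rn4 position and was not matched to RefSeq by accession. Its low signal in the first session is therefore not read as absence of the transcript. Gna12, Gng7 and Gnb5 passed under both scalings in TBI+JM6 rats alone of the 3 (1.01, 1.0 and 0.48 after quantile normalization, limma adjusted p = 0.0461, 0.0349 and 0.0478). Their differences between drugs did not pass a test.

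Rgs16, an R4 family gene whose transcript is induced by many stimuli, had the largest fitted difference from TBI rats of the members in TBI+JM6 rats. It was at -5.86, -5.68 and -7.21 in TBI rats, with TBI 3 not well above background, and at -3.49, -4.22 and -4.19 in TBI+PMI, -3.55, -2.73 and -1.81 in TBI+JM6 and -2.98 and -2.77 in TBI+E33 rats. No drug value overlapped a TBI value. The fold was 11.7 in TBI+JM6 (3.55, SE 0.47, limma adjusted p = 4.64e-05) and 10.3 in TBI+E33 rats (3.37, SE 0.52, limma adjusted p = 0.000168). After quantile normalization it was 2.03 and 1.65 (adjusted p = 0.00403 and 0.022), and in TBI+PMI rats 0.74 (adjusted p = 0.199).

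Rgs19 passed under both scalings in TBI+JM6 and TBI+E33 rats, by 0.48 and 0.47 after quantile normalization (limma adjusted p = 0.0214 and 0.0453). Rgs18, an R4 gene of platelets and myeloid cells, was well above background in the first session on TBI 2 alone (-5.50, with -8.13 and -7.38 on TBI 1 and 3). It was at -5.87, -3.48 and -3.58 in TBI+PMI, -3.18, -4.09 and -4.69 in TBI+JM6 and -4.11 and -3.12 in TBI+E33 rats. TBI 2 was also the injured rat with the highest leukocyte markers (3.31), and the drug groups ranged from 1.64 to 4.0 on that sum. After quantile normalization none of its differences from TBI rats passed (limma adjusted p = 0.322, 0.297 and 0.269).

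Rgs6 and Rgs13 were called higher in each drug comparison with the 75th percentile scaling. Rgs6 differed from TBI rats by 2.43, 2.36 and 2.60 (TBI+PMI, TBI+JM6 and TBI+E33), and Rgs13 by 2.20, 2.31 and 2.02. Neither was among the members higher after quantile normalization. A second probe of Rgs6 gave 0.50, 0.71 and 1.76 in the same order and was not called (limma adjusted p = 0.572, 0.4 and 0.0746). Gnat2, the cone transducin, was well above background on every drug array and on 1 of the 8 others, TBI 2. Gnat3, the gustducin of taste cells, was at background on all TBI arrays. It was well above background on 2 of 3 TBI+PMI, 1 of 3 TBI+JM6 and 2 of 2 TBI+E33 arrays. Gnat3 passed the filter on low values through TBI+E33 rats alone, so it had to be higher there, and the fold was at least 2.73 in TBI+E33 rats.

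Rgs1 was not called in any drug comparison and overlapped with TBI rats in each. It was at -0.40, -1.54 and -2.74 in TBI+PMI, -2.40, -1.68 and 0.44 in TBI+JM6 and -2.14 and -1.43 in TBI+E33 rats. Rgs4 was at 2.22, 0.02 and -0.30 in TBI+PMI, 0.07, 1.61 and 3.64 in TBI+JM6 and 1.61 and 1.41 in TBI+E33 rats, with the widest range of all groups in TBI+JM6. Rgs2 was at 1.32, 0.40 and -0.08 in TBI+PMI, 2.30, 0.35 and 2.12 in TBI+JM6 and 0.32 and 0.74 in TBI+E33 rats, and its difference in TBI+JM6 rats (1.61, SE 0.46, limma adjusted p = 0.00741) did not pass after quantile normalization (adjusted p = 0.117). A second probe of Rgs2 gave 0.95 in TBI+JM6 rats and was not called (limma adjusted p = 0.098).

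A few members were lower once all arrays had 1 distribution. Gng8, at -0.91, -1.25 and -1.52 in TBI rats, was at -1.56, -1.40 and -1.13 in TBI+PMI, -1.37, -1.54 and -1.70 in TBI+JM6 and -1.24 and -1.10 in TBI+E33 rats. It overlapped with TBI rats in each case, and the quantile differences were -0.79, -1.15 and -0.80 (limma adjusted p = 0.025, 0.00343 and 0.0354). Gnat1 and Gnb3 were lower in the 3 comparisons on that scale and both lay near background. With the 75th percentile scaling Gnat1 was positive, at 0.44 in TBI+PMI, at least 1.32-fold higher in TBI+JM6 and 1.24 in TBI+E33 rats. It was well above background on 1 of 2 TBI+E33 arrays and passed the filter through TBI+JM6 rats alone, so it had to be higher there. Gng13 was lower in TBI+PMI (-0.61, adjusted p = 0.0303) and TBI+JM6 rats (-0.59, adjusted p = 0.0271), Gna14 in TBI+JM6 rats and Rgs10, an RGS gene abundant in microglia, in TBI+E33 rats (-0.79, limma adjusted p = 0.0153).

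Of the 44 tested pathway genes, 24, 34 and 35 were higher in TBI+PMI, TBI+JM6 and TBI+E33 vs. TBI rats with the 75th percentile scaling and none lower. Of all tested probes 56.7%, 69.9% and 70.2% were higher there, so these counts are not read as particular to the pathway. After quantile normalization 2, 3 and 2 of the pathway genes were higher (9.96%, 13.9% and 10.4% of all probes) and 3, 5 and 4 lower (9.2%, 13.3% and 9.98%). Ric8a, the chaperone of newly made alpha subunits, and Prkacb were higher under both scalings in each comparison, and Prkar2a in TBI+JM6 rats. The astrocyte markers, 4 of 4 above background on every array, summed to 18.3 to 22.1 in the first session and to 27.1 to 48.6 on the drug arrays. The median of all probes was also higher than in TBI rats, by 0.79, 0.99 and 1.08 on the log2 scale. The rise is therefore not read as particular to astrocytes, and the part of these markers in the drug differences was not tested.

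The drugs were then set against each other, within the second session. Agents, doses and routes differed. The TBI+PMI and TBI+E33 arrays lay on different slides, so drug and slide cannot be told apart between them, and TBI+JM6 shared a slide with TBI+PMI on 1 array and with TBI+E33 on 2. No member was called between TBI+JM6 and TBI+PMI (0.0131% of all probes higher, 0% lower), TBI+JM6 and TBI+E33 (0% and 0.0175%) or TBI+PMI and TBI+E33 rats (0.00438% and 0.105%) by limma. At an unadjusted p under 0.05 limma gave 8, 0 and 3 of 47 members (8.85%, 2.81% and 15% of all probes) and the methods' t-test with a fold change over 1.2 gave 5, 1 and 2 (6.81%, 2.71% and 14.9%).

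Gnb2 was higher by 0.55 in TBI+JM6 than in TBI+PMI rats, with a 95% interval from 0.19 to 0.91 and no overlap between the arrays (limma adjusted p = 0.364). For Gnaz the difference was 0.76 (0.12 to 1.40, adjusted p = 0.495) and for Gna11 0.39 (-0.24 to 1.02, adjusted p = 0.746). Rgs16 differed by 1.27 with an SE of 0.47 (limma adjusted p = 0.47). TBI+JM6 and TBI+E33 rats differed by 0.16 for Gna11 (-0.54 to 0.87), 0.37 for Gnaz (-0.35 to 1.09) and 0.16 for Gnb2 (-0.25 to 0.57). TBI+PMI and TBI+E33 rats differed by -0.22 for Gna11 (-0.93 to 0.48), -0.39 for Gnaz (-1.10 to 0.33) and -0.39 for Gnb2 (-0.80 to 0.02).

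Several members are neighbours in the genome. Of the 47 members whose probe has an rn4 position, 9 lie on chromosome 13. Rgs2, Rgs13, Rgs1 and Rgs18, all of the R4 family, follow each other there with gaps between probes of 126.5, 103.8 and 488.7 kb. Of these, Rgs13 was called higher in Sham than in Naïve rats, and Rgs1, Rgs2 and Rgs18 were not called there. Gna11 and Gna15 lie 22.9 kb apart on chromosome 7, and Gna11 was called while Gna15, the Gq class subunit of blood cells, was not.

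The GC content of the member probes ran from 35% to 55%, with a median of 45%, equal to that of all probes. Across the tested members, which are not independent, the log2 difference correlated with GC content at r = -0.343 in TBI vs. Sham (-0.0977 across all probes) and 0.28 in Sham vs. Naïve rats (0.0788). With the trend on GC content removed, an alternative chosen after seeing the data, 5 and 9 members were called as before. Of the 49 members, 39 had 1 probe, and some of the other 10 had probes that disagreed. A second probe of Gnal, the Gs class subunit of olfactory neurons and striatum, was lower in TBI than in Sham rats (-0.89, SE 0.21, limma adjusted p = 0.0248) and than in Naïve rats (-0.87, adjusted p = 0.0244), whereas the brightest one gave -0.39 (adjusted p = 0.378) and another 0.46 against Sham rats. Both probes of Rgs6 had opposite signs in TBI vs. Sham rats (-0.33 and 1.14), neither past the threshold.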

How the data were processed

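The deposited scanner files hold, per the file headers, the intensity of each spot after background subtraction and detrending by Agilent Feature Extraction, and no scaling across arrays was applied. The matrix that the authors deposited holds the ratio to the 75th percentile of each array on a linear scale, with 1 distribution for all arrays, and served as an alternative. RNA had been amplified with 1 of 2 kits, and which rat had which kit is not given in the sources used here. Non-control spots without an outlier flag were averaged by probe, scaled to the array's 75th percentile (probes well above background only) and put on the log2 scale. Probes were kept where all arrays of 1 group or more were well above background, and these 22821 probes were fitted in a single limma model (6 groups, 10 residual degrees of freedom, two-sided), with calls made at an adjusted p under 0.05 (Benjamini-Hochberg, over all of them). The number of arrays and the spread between rats limit the precision. In simulated data of 22821 probes, 100 were changed 2-fold and 100 4-fold. Of the 2-fold changes limma found 24% in TBI vs. Sham and 37% in TBI+JM6 vs. TBI, and of the 4-fold changes 68% and 75%. In the data 69.9% of all probes were called higher in TBI+JM6 vs. TBI rats, and 2.92% higher and 6.46% lower in TBI vs. Sham rats. More probes differed than were changed in the simulation, whose noise was drawn independently for each probe. The simulated shares therefore do not describe either comparison.

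A probe below background on every array of a group is given as a bound against the dimmest probes well above background, where the other group had it well above background on all arrays. Named members are, per comparison, up to 10 called members with the largest rise and 10 with the largest fall, with Gna11, Gnaz, Gnat1 and Gnb2 throughout. Others named (Gnb5, Gnao1, Gnas, Gnaq, Rgs1, Rgs2, Rgs4, Rgs7, Rgs9, Gnai3, Gng8 and the like) were chosen after their values were seen. The members and lists were chosen with earlier results of these data known. Probe sequences, names and rn4 positions are those of the scanner files, and 43 members were found in the RefSeq genes by accession and 49 by symbol. Alternatives were the 75th percentile over all probes, quantile normalization, normexp (offset 50), other filters, the authors' matrix, the methods' t-test, the compared groups alone, the slide and the replicate number as blocks, the mean of a gene's probes and each array left out. R 4.3.3, limma 3.58.1, the data.table package (1.17.8), Python 3.11.15 and matplotlib 3.10.9 were used.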

Additional observations from a re-analysis of the deposited data

How the results depend on the processing

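The number of arrays, 2 or 3 per group, limited what could be called, and members near background (Gnat1, Gnat2, Gnat3, Gnb3, Gng2, Rgs13, Rgs18) rest on few bright spots. Numbers of called members are given in the order TBI vs. Sham, TBI vs. Naïve, Sham vs. Naïve, TBI+PMI, TBI+JM6 and TBI+E33 vs. TBI, with 5, 0, 9, 30, 35 and 35 as reported. Where a count moved, the cause was not tested. Settings whose share of all probes is not given above are listed as counts alone. No result about the members against the whole array is drawn from them. Quantile normalization gave 1 in TBI vs. Naïve and 12, 17 and 14 in the drug comparisons. The 75th percentile over all probes gave 9 in TBI vs. Sham (2 higher, 7 lower), 4 in TBI vs. Naïve and 19, 22 and 18 with the drugs. Normexp gave 0 in TBI vs. Sham and Sham vs. Naïve, 9 in TBI+PMI and 15 in TBI+E33. Probes above background on all 16 arrays gave 8 in TBI vs. Sham and 1 in TBI vs. Naïve. The authors' matrix gave 2 in TBI vs. Naïve and 12, 18 and 14 with the drugs. The methods' t-test after adjustment gave 0 in TBI vs. Sham and Sham vs. Naïve, 17 in TBI+PMI and 21 in TBI+E33, and unadjusted with over 1.2-fold 15 in TBI vs. Naïve, 17 in Sham vs. Naïve and 5, 1 and 2 between drugs (TBI+JM6 vs. TBI+PMI, TBI+JM6 vs. TBI+E33, TBI+PMI vs. TBI+E33). The compared groups alone gave 0 in TBI vs. Sham and 3 in Sham vs. Naïve. The slide as a fixed block gave 0 in both, and as a random block 11 in TBI vs. Sham and 1 in TBI vs. Naïve. With each array of the groups of 3 left out in turn, the counts ran from 3 to 13, 0 to 6, 4 to 7, 26 to 33, 32 to 37 and 31 to 34. They stayed at 0 between drugs. Sham and TBI+E33 arrays were not counted here, since 1 array would remain in the group. Testing dim probes too, and averaging the probes of each gene, changed 3 and 1 of 68 calls of named members, none in direction, and removing the GC trend changed none.

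With the replicate number as a block, 4 members passed in TBI vs. Sham and 7 in Sham vs. Naïve, and 3 of 68 named calls were lost: Gna12 in both and Gng13 in Sham vs. Naïve. The labels give the numbers no meaning beyond a name, and deviations of same-numbered arrays correlated at 0.155 to 0.183 in TBI vs. Sham and -0.185 to 0.0259 in TBI+JM6 vs. TBI+PMI, so the replicate block is no pairing by design.

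Direction turned for a few small or dim differences. Gnat1 vs. TBI was -1.18, -1.05 and -1.04 (TBI+PMI, TBI+JM6, TBI+E33) after quantile normalization and -1.29, -1.48 and -1.29 in the authors' matrix, and in TBI+PMI -0.20 with the percentile over all probes and -0.38 with normexp. Normexp also gave 0.43 for Gnat1 and 0.44 for Gnaz in TBI vs. Naïve, -0.048 for Gnat3 in TBI+PMI vs. TBI and 0.76 for Gnat1 in TBI+JM6 vs. TBI+E33. The authors' matrix gave -0.082 for Gnat2 in TBI+E33 vs. TBI, -0.19 for Gnat1 in TBI+JM6 vs. TBI+PMI and 0.014 for Gna11 in TBI+PMI vs. TBI+E33, where the slide as a fixed block gave 0.096. In TBI vs. Naïve, Gnaz was 0.0093 without Naïve 1, 0.13 without TBI 2 and 0.24 without TBI 3, down to -0.47 without TBI 1, and Gna11 -0.028 without TBI 1 and 0.64 without TBI 3. Gna11 in TBI+JM6 vs. TBI+E33 was -0.013 without TBI+E33 1 and 0.34 without TBI+E33 2.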
